A study of Mus musculus with 3 samples.

Results

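The 10 Sox genes described here act in the neural and neural crest lineages. They are Sox1, Sox3, Sox4, Sox5, Sox6, Sox8, Sox9, Sox10, Sox11 and Sox12. They were chosen by name, and all 10 were found among the 21938 protein-coding genes of GENCODE release M21 that served as the background. The rule that chose them uses no measured value, although it was written with earlier results of these data known. The study examined how homologous chromosomes fold in F123 cells, a male hybrid mouse embryonic stem cell (ESC) line from a cross of S129/Jae and Cast. The cells were untreated, were grown on inactivated feeder fibroblasts with LIF and were passaged on gelatin to remove the feeders before harvest. Chromatin immunoprecipitation sequencing (ChIP-seq) gave 1 library each for H3K27me3, for Pol2-S5p and for Pol2-S7p, the forms of RNA polymerase II that carry a phosphate on serine 5 or on serine 7 of the C-terminal repeats, all from that 1 cell line. The deposited files held enriched regions with a width and a score.

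With 1 library per mark there was no replicate error, so every value below describes these 3 libraries and no test was made. The files listed regions without read counts, so the depth behind a region is unknown here. The lists were not separated by allele. Marks on the same window in different cells cannot be told apart, nor, for autosomal genes, marks on different homologues. The lists held 17342 H3K27me3, 29222 Pol2-S5p and 22320 Pol2-S7p regions in mm10. Of 8 ESC markers, all 8 had both polymerase forms at the start and Klf4 alone also had H3K27me3. Of 7 fibroblast markers of the feeders, 0 had Pol2-S7p, 1 (Thy1) had Pol2-S5p and 3 had H3K27me3. The shares of all protein-coding genes were 60.4% with Pol2-S7p, 69.9% with Pol2-S5p and 37.7% with H3K27me3.

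Sox proteins bind DNA through a domain of the HMG type first described in the product of Sry, the testis-determining gene. The SoxB1 proteins Sox1 and Sox3 maintain neural progenitors, the SoxC proteins Sox4, Sox11 and Sox12 act in differentiating neurons, the SoxD proteins Sox5 and Sox6 act in cartilage and in neuronal and glial fate, and the SoxE proteins Sox8, Sox9 and Sox10 act in neural crest, glia and cartilage. In ESCs, Polycomb repressive complexes place H3K27me3 at the promoters of many such lineage regulators, where Pol2-S5p can be present while the Pol2-S7p that accompanies productive transcription is low or absent.

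A promoter was the 2 kb around an annotated transcription start site, and it held a mark when any region of that list touched it. Promoters in which H3K27me3 and Pol2-S5p were found but Pol2-S7p was not are named PRC-repressed (PRCr), and promoters holding the 3 marks together PRC-Active (PRCa). Active promoters held both polymerase forms without H3K27me3, and Inactive ones held nothing. Where a gene had several annotated starts, the start with the most Pol2-S5p cover stood for the gene. RefSeq (GRCm38.p6) listed 12 promoters of 7 of the Sox genes, each taken as the 250 bases before the start. At the 7 starts that held a mark these bases had between 9 and 35 CpG dinucleotides, and at the 5 starts without any mark between 1 and 3. The following promoters show that contrast, from the only Active gene, through PRCa and PRCr starts, to unmarked starts of Sox6 and Sox5. They are written 5′ to 3′ along transcription with every CpG in capitals, and come from the reference strain rather than from the hybrid cells.
Sox12 (Active), chr2:152398047-152398296, minus strand: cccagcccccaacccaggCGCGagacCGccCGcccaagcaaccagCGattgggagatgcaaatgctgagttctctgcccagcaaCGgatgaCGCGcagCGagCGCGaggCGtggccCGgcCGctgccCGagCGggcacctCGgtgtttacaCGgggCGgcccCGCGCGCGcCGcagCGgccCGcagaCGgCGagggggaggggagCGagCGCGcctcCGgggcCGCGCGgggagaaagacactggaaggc
Sox11 (PRCa), chr12:27342719-27342968, minus strand: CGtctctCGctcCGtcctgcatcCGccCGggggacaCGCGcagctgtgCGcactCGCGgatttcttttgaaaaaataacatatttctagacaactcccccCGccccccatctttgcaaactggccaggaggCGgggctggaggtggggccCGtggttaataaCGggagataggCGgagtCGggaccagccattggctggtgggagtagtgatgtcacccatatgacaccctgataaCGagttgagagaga
Sox4 (PRCa), chr13:28953700-28953949, minus strand: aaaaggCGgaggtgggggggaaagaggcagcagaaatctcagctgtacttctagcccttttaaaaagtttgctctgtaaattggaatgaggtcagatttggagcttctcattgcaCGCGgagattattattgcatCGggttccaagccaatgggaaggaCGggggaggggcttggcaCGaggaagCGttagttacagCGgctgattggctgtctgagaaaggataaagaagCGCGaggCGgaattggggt
Sox6, marked start (PRCr), chr7:116031048-116031297, minus strand: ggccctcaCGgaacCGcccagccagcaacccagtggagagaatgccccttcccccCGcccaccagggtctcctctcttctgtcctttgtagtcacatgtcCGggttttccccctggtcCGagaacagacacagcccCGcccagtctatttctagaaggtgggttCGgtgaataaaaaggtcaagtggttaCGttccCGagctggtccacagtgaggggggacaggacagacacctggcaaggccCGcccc
Sox6, unmarked start (Inactive), chr7:115995087-115995336, minus strand: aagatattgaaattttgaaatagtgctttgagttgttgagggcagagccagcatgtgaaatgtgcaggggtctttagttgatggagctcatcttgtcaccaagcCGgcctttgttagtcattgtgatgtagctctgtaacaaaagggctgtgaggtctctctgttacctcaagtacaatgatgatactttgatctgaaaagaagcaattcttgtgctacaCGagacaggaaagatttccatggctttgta
Sox5, unmarked start (Inactive), chr6:143947107-143947356, minus strand: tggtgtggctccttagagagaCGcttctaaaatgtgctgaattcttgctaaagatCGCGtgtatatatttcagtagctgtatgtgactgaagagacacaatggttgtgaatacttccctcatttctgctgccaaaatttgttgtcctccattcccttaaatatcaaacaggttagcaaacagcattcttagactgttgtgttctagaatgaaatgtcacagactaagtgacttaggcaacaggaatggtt

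The Sox12 promoter held 35 CpG, the Sox11 promoter 17 and the Sox4 promoter 11. At Sox6 the marked start held 10 CpG and the unmarked start 2, while the unmarked Sox5 start held 3. The 12 promoters together had a median of 9.5 CpG, close to the median of 10 over all 20150 RefSeq promoters of protein-coding genes. Sox6 supplied more of the 12 than any other gene, and most of its promoters were unmarked. This 1 gene therefore weighs heavily on the median and on the motif counts that follow. The box CCAAT, searched on both strands as CCAAT or ATTGG, was found in 6 of the 12 promoters, with 4 copies in Sox4, against 35% of all promoters. The Sox core motif ACAAAG or its complement CTTTGT was found in 5 of the 12, all of them at Sox6 starts, against 14.8% of all promoters. AACAAT or ATTGTT was in 1 promoter (8.1% of all) and TATAAA or TTTATA in 1 (11.2%), both at unmarked Sox6 starts. No copies of these motifs overlapped each other, and the promoters of 1 gene are not independent of each other.

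Over the full 2 kb window, CpG dinucleotides were frequent at all 10 Sox genes. The counts ran between 86 at Sox6 and 231 at Sox12 with a median of 121.5, against a median of 50.5 over all protein-coding genes. The 10 Sox genes that were not chosen had a median of 116. Sox11 (216) and Sox3 (189) followed Sox12, then Sox9 (144), Sox1 (124), Sox4 (119), Sox5 (112), Sox8 (99) and Sox10 (90). Only 0.242% of protein-coding genes had as many CpG as Sox12, and 29.8% had as many as Sox6. The 4 PRCr genes had between 86 and 144 CpG and the 5 PRCa genes between 99 and 216, so the ranges overlapped. The medians over all protein-coding genes were 68 in state PRCr, 93 in PRCa, 72 in Active and 12 in Inactive. The ratio of observed to expected CpG had a median of 0.737 at the Sox genes and 0.401 at all protein-coding genes.

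**Figure D1:**
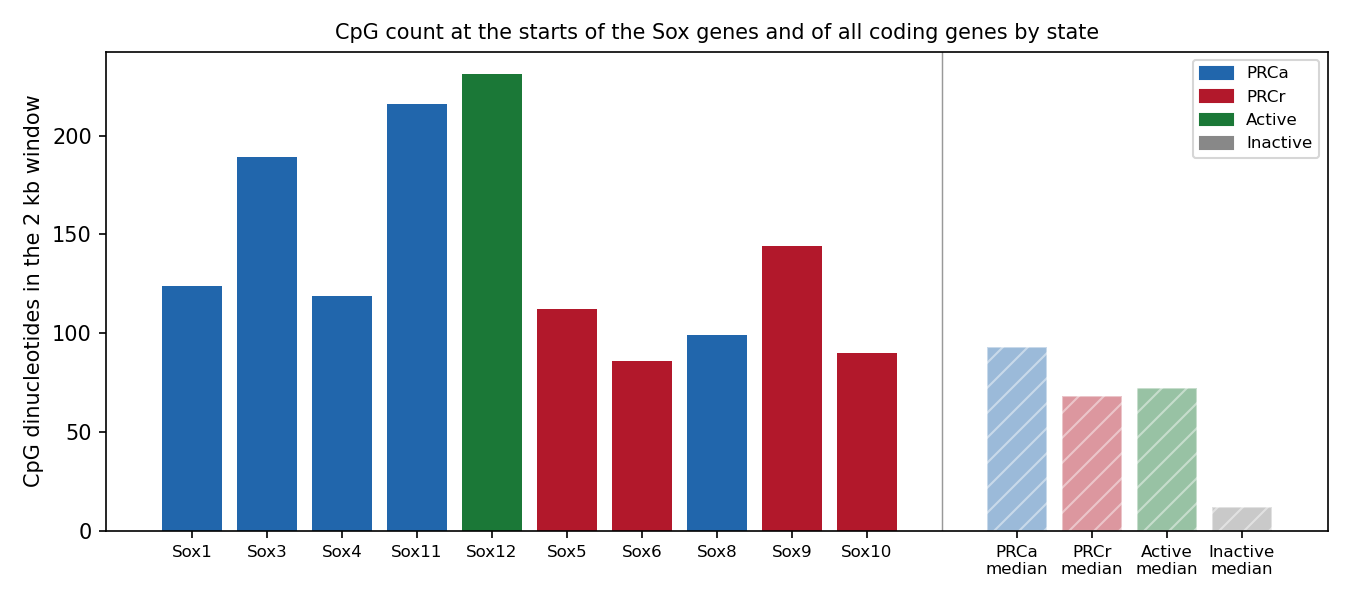
CpG dinucleotides in the 2 kb window of each Sox gene (solid bars, coloured by promoter state) and the median over all protein-coding genes in 4 states (hatched bars). Every Sox gene lies above the median of 50.5 over all protein-coding genes, and Sox12, the only Active one, has the highest count, 231.

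The first comparison asked which marks the Sox promoters held. H3K27me3 was present at 9 of the 10 promoters, all except Sox12, against 37.7% of all protein-coding genes. Pol2-S5p was present at all 10 (69.9% of all protein-coding genes) and Pol2-S7p at 6 (60.4%). Sox5, Sox6, Sox9 and Sox10 were PRCr, 4 of 10 against 7.66% of all protein-coding genes. Sox1, Sox3, Sox4, Sox8 and Sox11 were PRCa, 5 of 10 against 23.9%, and Sox12 was Active, 1 of 10 against 35.9%. Both chosen SoxB1 genes were thus PRCa and both chosen SoxD genes PRCr, and Sox genes that were not chosen are not counted here. The SoxC genes were divided between PRCa and Active, and the SoxE genes between PRCa and PRCr. Each group holds few genes, and several states, among them those of Sox1, Sox3, Sox4 and Sox5, changed under other settings given below.

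**Figure D2:**
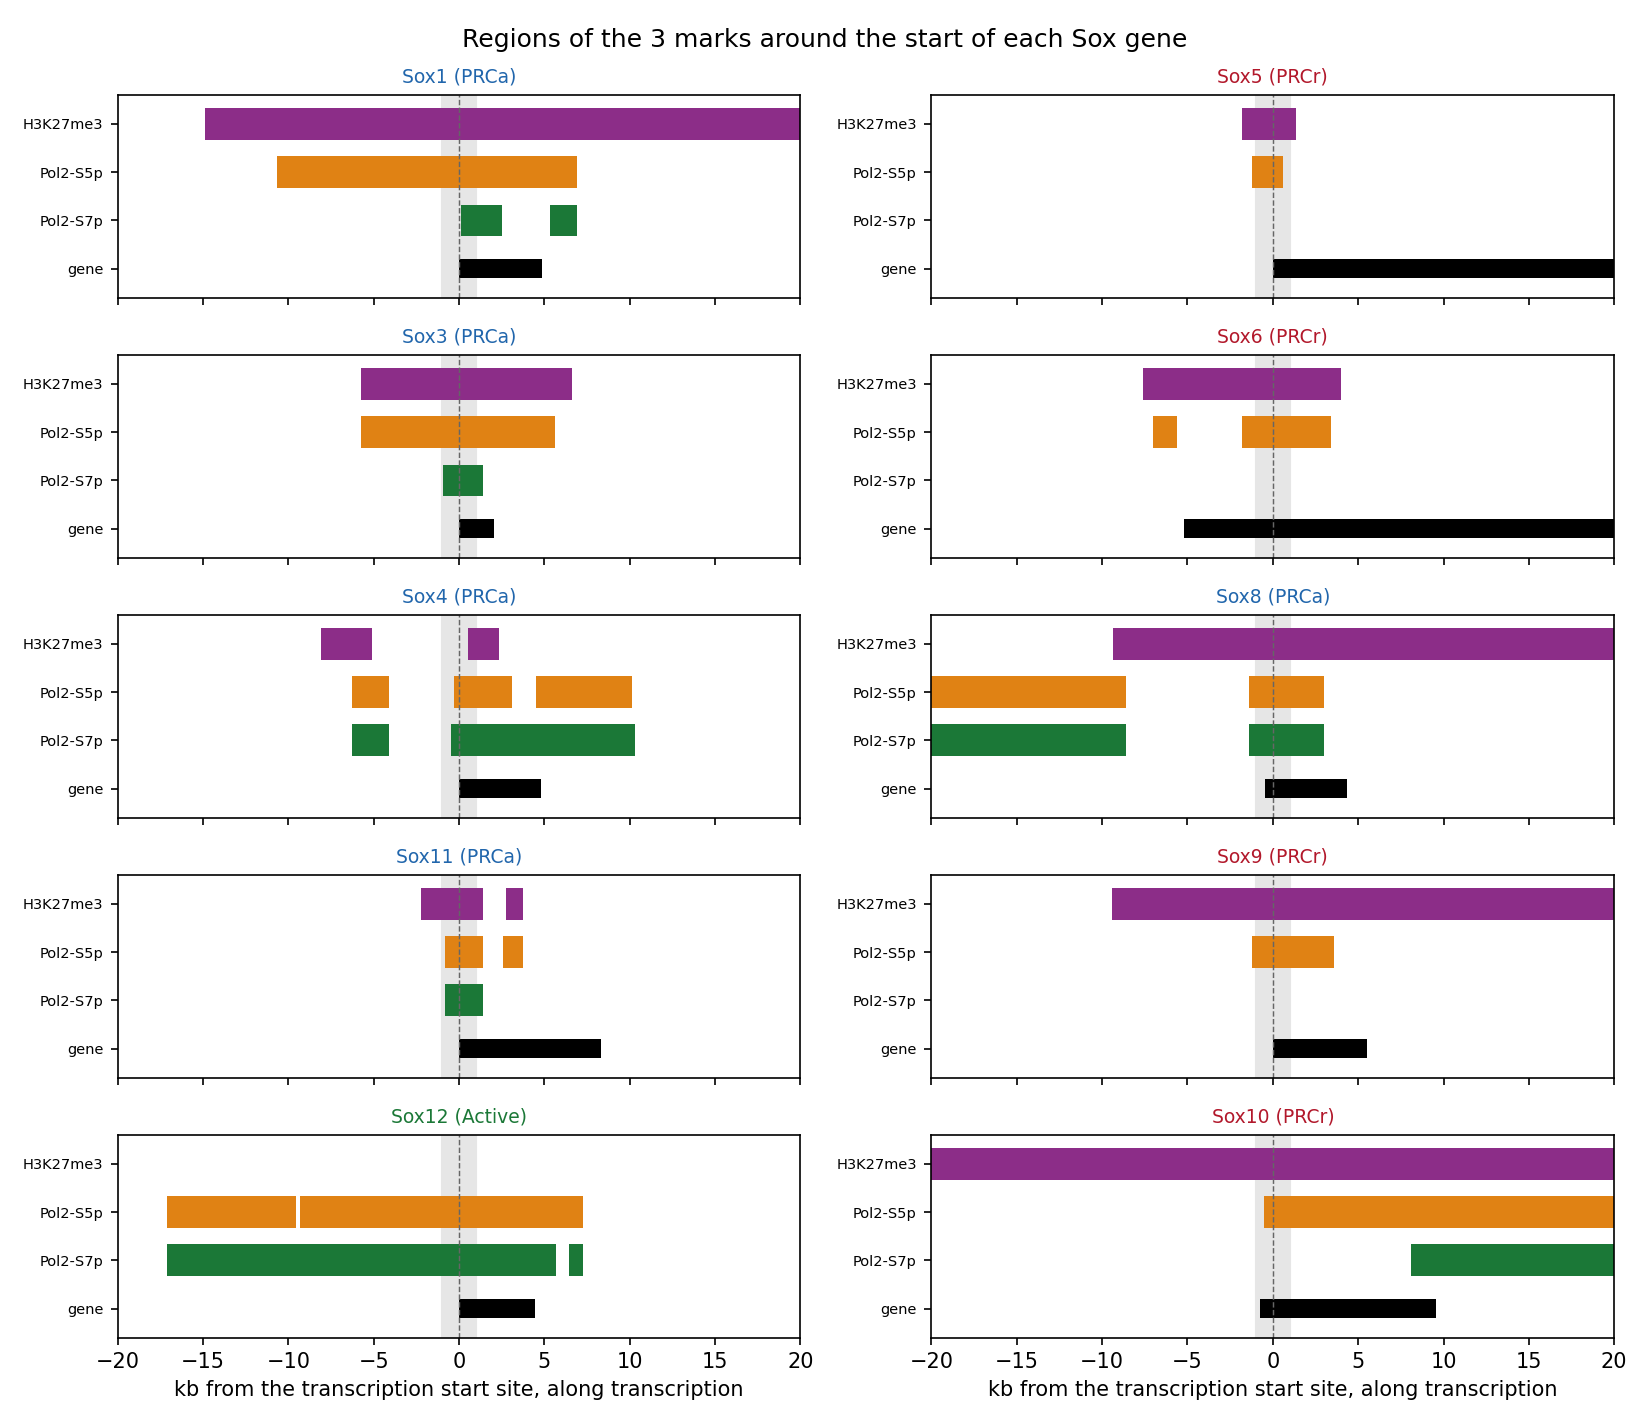
Regions of H3K27me3 (purple), Pol2-S5p (orange) and Pol2-S7p (green) within 20 kb of the chosen start of each Sox gene, with the gene in black and the 2 kb window in grey. The horizontal axis is the distance from the start in kb along transcription. Pol2-S5p reaches the grey window in all 10 panels, H3K27me3 in 9 and Pol2-S7p in 6.

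Sox1, on the plus strand at chr8:12395295-12400126, keeps neural progenitors undifferentiated. H3K27me3 and Pol2-S5p each covered 2000 of the 2000 bp of its window, and Pol2-S7p covered 895 bp. The H3K27me3 region was 53.4 kb wide, between -14.9 and 38.5 kb from the start, and the Pol2-S5p region was 17.6 kb wide. The Pol2-S7p region began 105 bp inside the gene and was 2.4 kb wide, and 4.3% of the Pol2-S7p list scored as high as its 49.6. The promoter therefore carried H3K27me3 and Pol2-S5p on both sides of the start, and Pol2-S7p only downstream. Because Pol2-S7p covered less than 50% of the window, Sox1 counted as PRCr where that much cover was asked for.

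Sox3, on the minus strand at chrX:60891366-60893430, is an X-linked partner of Sox1 in neural progenitors. H3K27me3 and Pol2-S5p covered the window in full and Pol2-S7p covered 1970 bp. The H3K27me3 region of 12.4 kb and the Pol2-S5p region of 11.4 kb began at the same base, 5.77 kb upstream of the start. The Pol2-S7p region of 2.4 kb was centred near the start. Both polymerase regions ranked low by score within their lists. Their scores were 4.734 for Pol2-S5p and 6.021 for Pol2-S7p, and 91.2% and 89.8% of those lists scored at least as high. Once regions at or below their list's median score were set aside, Sox3 held H3K27me3 only.

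Sox4, on the minus strand at chr13:28948919-28953713, is a SoxC gene expressed in many progenitor and neuronal cells. Pol2-S7p covered 1487 bp of its window, Pol2-S5p 1287 bp and H3K27me3 487 bp. The H3K27me3 region was narrow, 1.8 kb, and lay inside the gene, beginning 514 bp after the start. Its score of 23.4 was reached by 3.37% of the list. The Pol2-S7p region of 10.8 kb ran over the whole gene of 4795 bp and on to 10.3 kb from the start, and the long noncoding RNA (lncRNA) gene Gm26735 on the opposite strand overlapped this stretch. Sox4 was thus the Polycomb-marked gene with the least H3K27me3 in its window, and with a window of 1 kb it counted as Active.

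Sox11, on the minus strand at chr12:27334264-27342574, acts with Sox4 in young neurons. H3K27me3 covered 2000 bp of the window, and each polymerase form covered 1826 bp. The Pol2-S5p and Pol2-S7p regions had the same ends and were both 2.2 kb wide. Shared ends were found at 2 of the 6 Sox genes with both forms, Sox11 and Sox8, against 9.7% of the protein-coding genes with both. Sox11 also had a further H3K27me3 region of 1 kb and a Pol2-S5p region of 1.2 kb inside the gene, which began 2.77 and 2.58 kb after the start. All 3 regions at its start were at or under 3.6 kb wide.

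Sox12, on the minus strand at chr2:152393611-152398063, is the remaining SoxC gene and is widely expressed. Pol2-S5p and Pol2-S7p covered the whole window and the whole gene, in regions of 16.6 kb and 22.8 kb. H3K27me3 covered 0 bp. The nearest H3K27me3 region lay 21.7 kb upstream, over the defensin gene Defb23, and was 51.4 kb wide with a score of 6.394. The neighbours Zcchc3, Nrsn2 and 6820408C15Rik were Active as well.

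Sox5 and Sox6, the chosen SoxD genes, are the long genes among the 10, and most of their annotated starts held no mark. Sox5 (chr6:143828425-144781977, minus strand) spans 953.6 kb and Sox6 (chr7:115470872-116038796, minus strand) 567.9 kb. At the chosen start of Sox5, H3K27me3 covered 2000 bp, Pol2-S5p 1577 bp and Pol2-S7p 0 bp. At that of Sox6, H3K27me3 and Pol2-S5p each covered 2000 bp and Pol2-S7p 0 bp. The H3K27me3 region of Sox6, 11.6 kb wide, had a score of 28.16, which 1.6% of the list reached, while that of Sox5 was 3.2 kb wide with a score of 15.83.

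Sox5 had 12 annotated starts. The first 2, which lay 58 bp apart, held H3K27me3 and Pol2-S5p, and the other 10, between 572 and 835 kb downstream, were Inactive. The marked starts belong to a retained intron and a processed transcript, and none of the 7 starts of protein-coding transcripts held a mark. With starts of protein-coding transcripts alone, an alternative chosen after the data were seen, Sox5 was therefore Inactive. Sox6 had 13 starts. The first 5, within 7.75 kb, were PRCr, and the other 8, between 43.7 and 441 kb downstream, were Inactive. Here 2 of the 8 starts of protein-coding transcripts were among the marked ones, which include the PRCr promoter printed above.

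**Figure D3:**
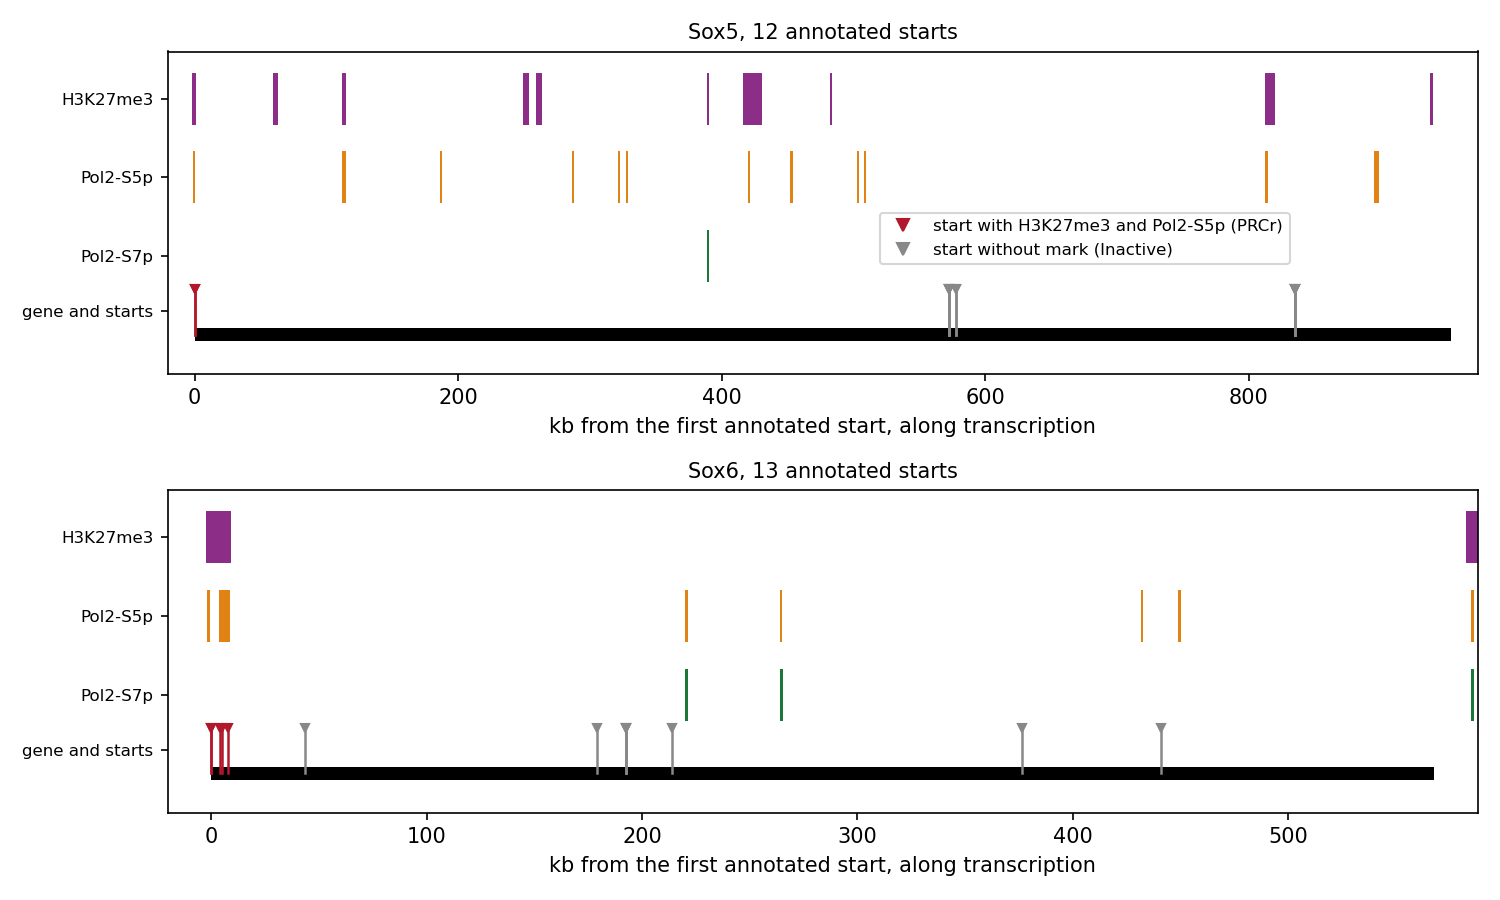
Regions of the 3 marks along Sox5 and Sox6, with the gene in black and each annotated start as a triangle (red, PRCr; grey, Inactive). The horizontal axis is the distance from the first annotated start in kb along transcription, and regions narrower than the line are drawn slightly wider so that they can be seen. Marked starts lie only at the left end, 2 of 12 in Sox5 and 5 of 13 in Sox6.

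Within the body of Sox5, H3K27me3 covered 43.2 kb (4.53%), Pol2-S5p 19.2 kb (2.01%) and Pol2-S7p 0.6 kb (0.0629%). The body of Sox6 had 9.2 kb of H3K27me3 (1.62%), 9.6 kb of Pol2-S5p (1.69%) and 2.8 kb of Pol2-S7p (0.493%). Medians over the 2492 protein-coding genes of at least 100 kb were 1.25% for H3K27me3, 2.17% for Pol2-S5p and 1.24% for Pol2-S7p. Sox5 and Sox6 were therefore above the median of long genes in H3K27me3 and below it in both polymerase forms. The widest H3K27me3 region inside Sox5 away from the promoter was 15 kb wide and began 416 kb from the start. H3K27me3 and Pol2-S5p shared 6.38 kb of the Sox5 body, which is 14.8% of its H3K27me3 and 33.3% of its Pol2-S5p.

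Over all 10 genes there were 38 annotated starts. H3K27me3 was present at 18 (33.2% of 93513 starts of protein-coding genes), Pol2-S5p at 20 (70.1%) and Pol2-S7p at 8 (63.7%), and 18 starts had no mark. All 18 unmarked starts belonged to Sox5 and Sox6. At the 8 other genes every annotated start was in the same state as the chosen one, over at most 0.766 kb (Sox10). Starts of 1 gene that lie close together share regions and are not independent.

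Sox8, on the minus strand at chr17:25565892-25570686, is a SoxE gene of crest, glia and testis. All 3 marks covered its window in full. The H3K27me3 region was 108.4 kb wide, of which Pol2-S5p covered 28.8% and Pol2-S7p 4.8%. Both polymerase regions at the start had the same ends and were 4.4 kb wide, and the Pol2-S7p region had a score of 9.608, below the median of its list (12.69). Once regions at or below the median score were set aside, Sox8 was PRCr. In the same H3K27me3 region lay the promoters of Sstr5, a somatostatin receptor gene, and Tekt4, a gene of the sperm flagellum, both PRCr, and that of Lmf1, a lipase maturation factor gene, which was PRCa.

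Sox9, on the plus strand at chr11:112782224-112787760, specifies cartilage and acts in crest, glia and testis. H3K27me3 and Pol2-S5p covered its window in full and Pol2-S7p covered 0 bp. The H3K27me3 region was 46.6 kb wide and the Pol2-S5p region 4.8 kb, which is 10.3% of it. No Pol2-S7p lay in the gene, and the nearest Pol2-S7p region was 419.2 kb downstream. The nearest protein-coding genes were distant, Kcnj2 1705 kb upstream and Slc39a11 457.1 kb downstream, both PRCa. Of the 10 starts, that of Sox9 was the farthest from any Pol2-S7p.

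Sox10, on the minus strand at chr15:79154908-79165240, directs crest cells to glial and melanocyte fates. H3K27me3 covered 2000 bp of its window, Pol2-S5p 1526 bp and Pol2-S7p 0 bp. The H3K27me3 region of 122 kb was the widest at any of the Sox promoters, and Pol2-S5p covered 75.2% and Pol2-S7p 55.1% of it. The Pol2-S5p region of 56.6 kb lay between -0.525 and 56.1 kb from the start, over the gene and on through Polr2f, which encodes a polymerase subunit, 1700088E04Rik and Micall1. A Pol2-S7p region of 47.8 kb covered the same 3 neighbours and ended over the last 1.49 kb of Sox10, 8.07 kb from the start. Those neighbours were PRCa, with all 3 marks over their whole length. Sox10 thus had Pol2-S7p over the end of its body and none at its promoter, and region lists do not show which gene the polymerase at the end belonged to.

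The H3K27me3 regions at the Sox promoters differed widely in width. They ran from 1.8 kb at Sox4, 3.2 kb at Sox5 and 3.6 kb at Sox11 through 11.6 kb at Sox6 and 12.4 kb at Sox3 to 46.6 kb at Sox9, 53.4 kb at Sox1, 108.4 kb at Sox8 and 122 kb at Sox10. Regions over 10 kb were found at 6 of the 9 genes, against 58.3% of protein-coding genes with the mark. All 9 scored above the median of the list, 8.226, as did such a region at 63.8% of the protein-coding genes with the mark. Pol2-S5p regions over 10 kb were found at 4 of 10 genes (57.5% of genes with Pol2-S5p) and Pol2-S7p regions over 10 kb at 2 of 6 (61.7%). Without H3K27me3 regions over 10 kb, Sox4, Sox5 and Sox11 were the 3 of 10 with the mark, against 15.8% of all protein-coding genes.

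The next comparison asked how far the marks extended over the genes and their surroundings. H3K27me3 covered the whole body of Sox1, Sox3, Sox8, Sox9 and Sox10, 37.5% of Sox4, 28.6% of Sox11 and none of Sox12. The median over the 10 genes was 68.8%, against 0% over all protein-coding genes. For Pol2-S5p the medians were 71.8% over the Sox genes and 13.2% over all protein-coding genes, and for Pol2-S7p 33.1% and 5.37%. High body cover was not particular to the chosen genes. The 10 Sox genes that were not chosen had medians of 100% for H3K27me3 and 95.5% for each polymerase form. Pol2-S7p covered all of Sox4 and Sox12, 72.7% of Sox8, 69.3% of Sox3, 49.7% of Sox1, 16.5% of Sox11, 14.4% of Sox10, and under 1% of Sox5, Sox6 and Sox9. The 8 genes other than Sox5 and Sox6 are between 2065 and 10333 bp long. The medians over all protein-coding genes were not matched to them in length.

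**Figure D4:**
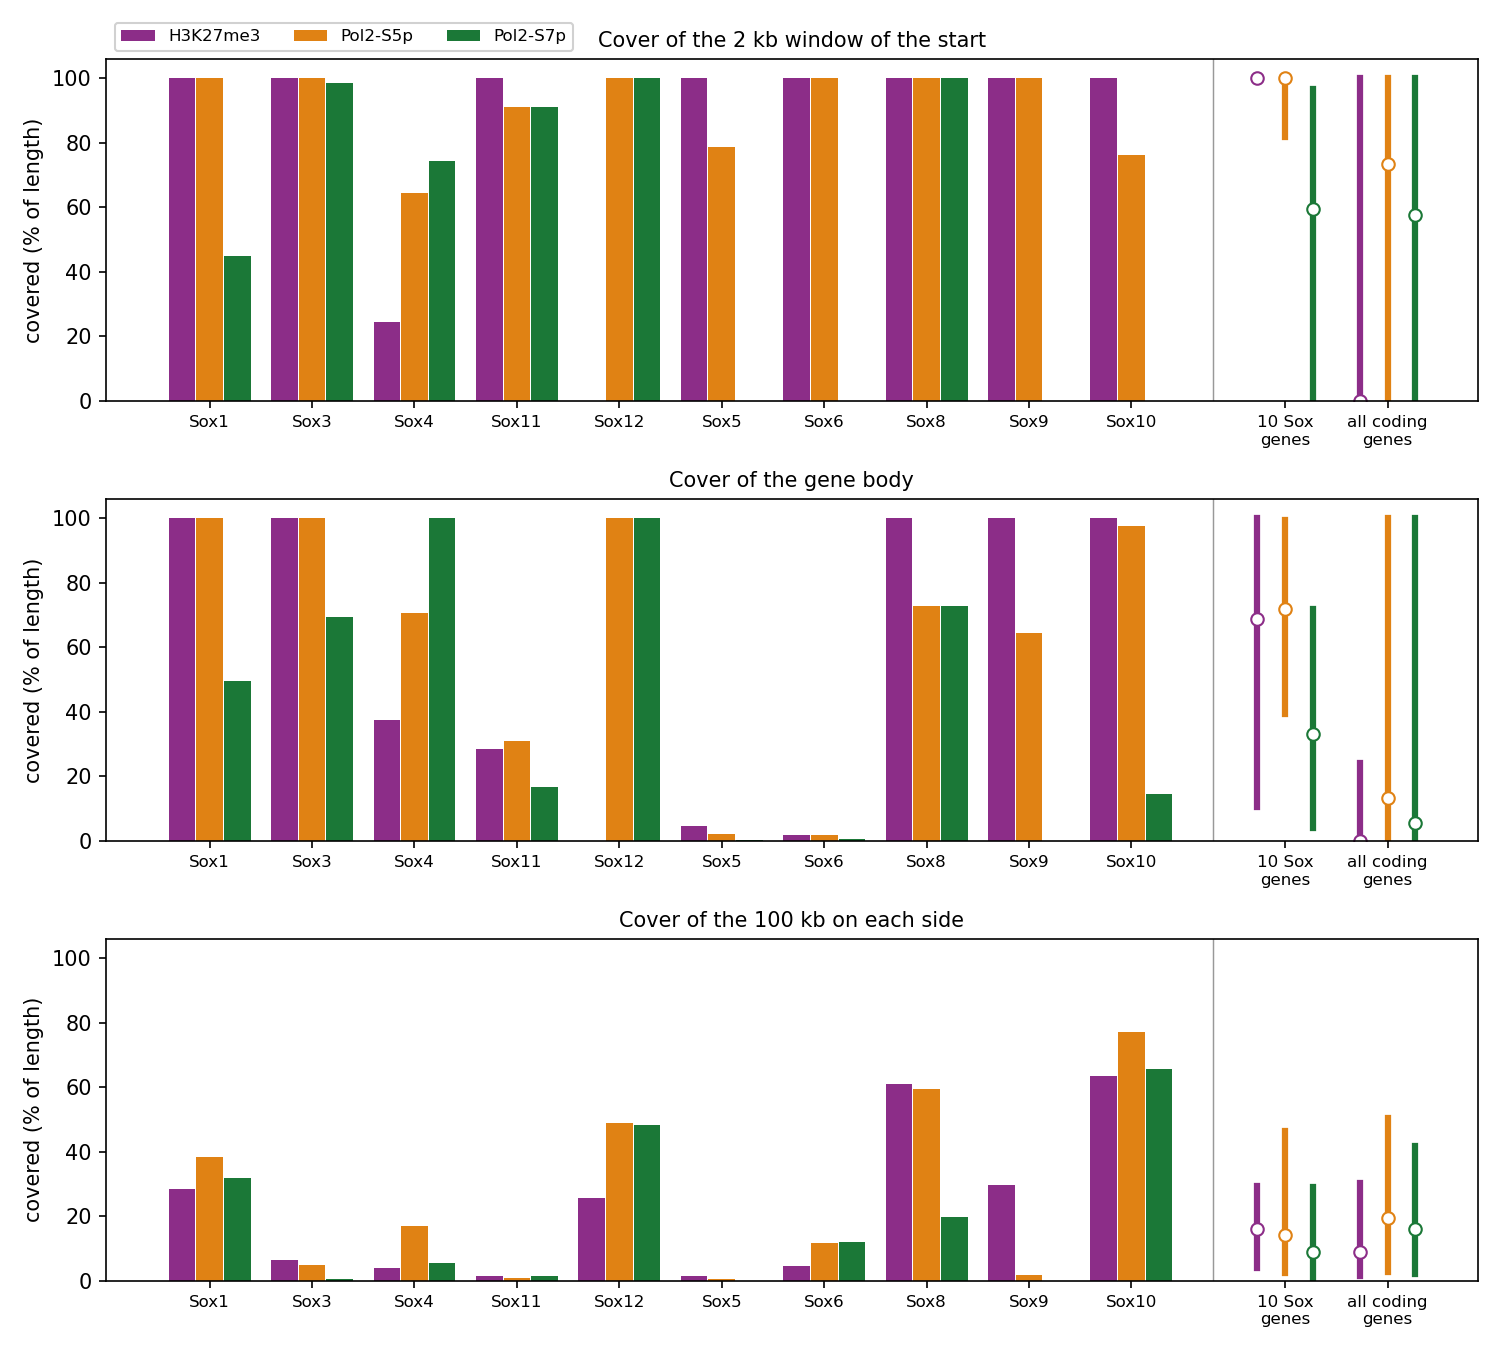
Share of the 2 kb window (top), of the gene body (middle) and of the 100 kb on each side (bottom) that each list covers, in percent of length. Bars are single genes, and at the right circles mark the median and lines the quartiles of the 10 Sox genes and of all protein-coding genes. In the windows the median H3K27me3 cover is 100% for the Sox genes and 0% for all protein-coding genes.

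In the 100 kb on each side of the gene, the Sox genes had a median cover of 16% by H3K27me3, 14.2% by Pol2-S5p and 8.7% by Pol2-S7p. All protein-coding genes had medians of 9%, 19.5% and 15.9%. The single genes did not share 1 direction: 5 of the 10 lay above the median of all protein-coding genes in H3K27me3 and 5 below it, and for each polymerase form 4 lay above and 6 below. With 200 kb on each side the medians were 9.14% over the Sox genes and 10.5% over all protein-coding genes for H3K27me3, and 20.3% and 19.6% for Pol2-S5p, the other way round for both. Sox10 had 63.5% H3K27me3, 77% Pol2-S5p and 65.6% Pol2-S7p in its surroundings, and Sox8 had 60.9%, 59.4% and 19.8%. Sox5, by contrast, had 1.31% H3K27me3, 0.611% Pol2-S5p and 0% Pol2-S7p, and Sox11 had 1.51%, 0.713% and 1.41%. Sox9 combined 29.5% H3K27me3 with 1.61% Pol2-S5p and 0% Pol2-S7p.

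**Figure D5:**
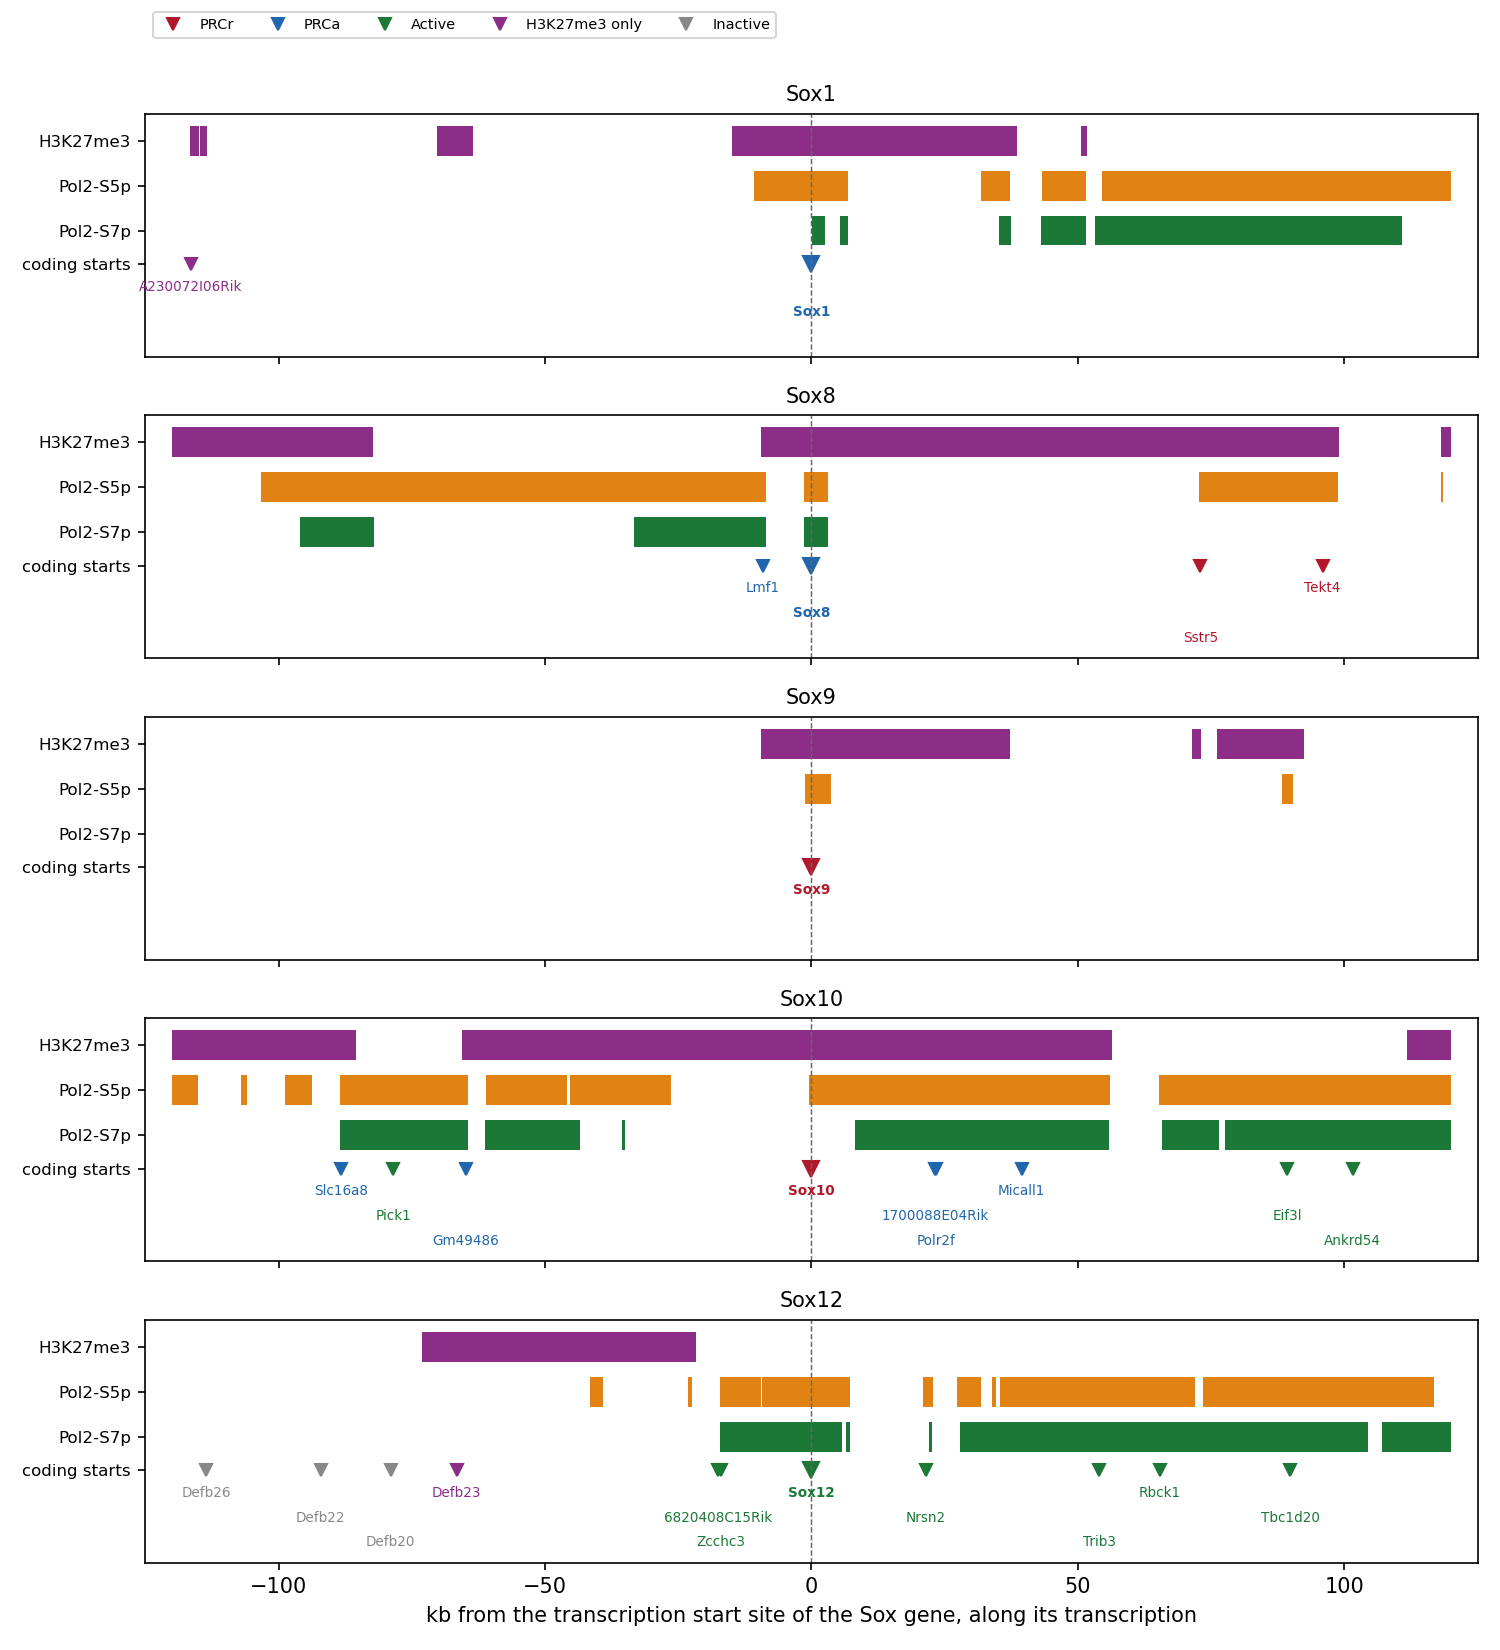
Regions of the 3 marks around the start of Sox1, Sox8, Sox9, Sox10 and Sox12, with the chosen start of every protein-coding gene as a triangle coloured by state. The horizontal axis is the distance from the start of the Sox gene in kb along its transcription. The Sox9 panel holds no other protein-coding start and no Pol2-S7p, whereas the H3K27me3 regions of Sox10 and Sox8 also hold promoters of other protein-coding genes.

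Nearest neighbours showed the same range. The protein-coding gene nearest to Sox6, 1110004F10Rik, is divergent, with a gap of 600 bp, and was PRCr within the same H3K27me3 region. Sox10 lay 3.13 kb from Polr2f and Sox8 8.4 kb from Lmf1, both PRCa. Sox4, in contrast, lay 238 kb from Cdkal1 and 691 kb from Gm11361, both Active, and Sox5 lay 212 kb from Bcat1 and 596 kb from Etnk1, both Active. Around Sox11 the nearest genes were Cmpk2 at 854 kb (PRCa) and Dcdc2c at 1095 kb (Inactive). Upstream of Sox3 the nearest gene was Cdr1 at 291 kb (Inactive), and around Sox1 they were A230072I06Rik at 115 kb (H3K27me3 only) and Spaca7 at 173 kb (Inactive).

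The protein-coding gene most like each Sox gene was taken as the nearest one in Euclidean distance over 9 cover values, those of window, body and surroundings by the 3 lists, on a scale where 1 is full cover. The closest matches were Nhs to Sox5 (distance 0.0181), Naaladl1 to Sox12 (0.0212), Egr2 to Sox3 (0.0419), Tenm3 to Sox6 (0.0488) and Oxtr to Sox9 (0.0568). Sox11 was nearest to Clcn4 (0.141), Sox10 to Lgi3 (0.212), Sox8 to Atp4a (0.216), Sox1 to Rps6ka4 (0.25) and Sox4 to Bach1 (0.304). The median distance of a Sox gene to all protein-coding genes was between 1.37 and 1.99. Each match was in the same state as its Sox gene, which the measure favours. Among the Sox genes themselves, Sox5 and Sox6 were the closest pair, at 0.27. Even so, Sox6 ranked only 241 among the protein-coding genes nearest to Sox5, and Sox5 ranked 170 among those nearest to Sox6. The 9 values therefore did not set the Sox genes apart as a group.

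The 10 Sox genes that were not chosen, some of which also act in neural tissue, were described in the same way. Of the 10 chosen Sox genes 9 held H3K27me3, 10 Pol2-S5p and 6 Pol2-S7p, against 8, 9 and 8 of the 10 other Sox genes. The shares of all protein-coding genes were 37.7%, 69.9% and 60.4%, with 7.66% PRCr, 23.9% PRCa and 35.9% Active. PRCr were 4 of the chosen genes and 2 of the others, Sox14, a gene of the developing brain, and Sox17, an endoderm gene. The 6 other genes in state PRCa were Sox2, Sox7, Sox13, Sox18, Sox21 and Sox30, and Sox15 was Active. No test of these counts was made.

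Genes that act with these Sox genes were counted in 5 lists, to be read against the same shares of all protein-coding genes, 37.7% with H3K27me3, 69.9% with Pol2-S5p and 60.4% with Pol2-S7p. Of 12 crest specifiers, 12 had H3K27me3, 12 Pol2-S5p and 5 Pol2-S7p. Nearly all of that H3K27me3 lay in wide regions. Without regions over 10 kb, 1 of the 12 kept the mark, against 41.8% of the protein-coding genes with H3K27me3. The counts without wide regions in the other lists are to be read against that share. PRCr among them were Msx1, Msx2, Pax3, Snai2, Tfap2a, Tfap2b and Zic1, and PRCa were Ets1, Foxd3, Id3, Snai1 and Twist1. Pax3 and Msx1, which define the neural plate border, had 2000 bp of H3K27me3, 2000 bp of Pol2-S5p and 0 bp of Pol2-S7p, the same values as Sox9. Foxd3, a crest and pluripotency factor, had 2000 bp of each mark, as Sox8 did.

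Among 12 neural progenitor genes, 11 held H3K27me3 (0 without regions over 10 kb), 10 Pol2-S5p and 6 Pol2-S7p. Neurog1, Neurog2, Olig2 and Nkx2-2, factors of neuronal and glial fate, were PRCr, and genes in state PRCa included Dll1, Hes5, Msi1, Nes and Pou3f2. Pax6, a regulator of eye and forebrain, held H3K27me3 only (6.02% of all protein-coding genes), and Fabp7, a radial glia gene, was Inactive (23.5%). Of 8 neuron genes, 6 held H3K27me3 (3 without wide regions), 7 Pol2-S5p and 5 Pol2-S7p. Stmn2 was Active and Dcx Inactive, and Elavl3 and Rbfox3 were PRCr.

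Of 13 glia, melanocyte and enteric genes, 9 held H3K27me3 (2 without wide regions), 8 Pol2-S5p and 6 Pol2-S7p. Dct and Ednrb held H3K27me3 only, Mitf was Active, and S100b and Tyr were among the Inactive genes. Among 8 cartilage genes, the downstream tissue of Sox5, Sox6 and Sox9, 7 held H3K27me3 (2 without wide regions), 7 Pol2-S5p and 4 Pol2-S7p, and Acan, Hapln1 and Matn1 were PRCr while Col2a1, Col11a2, Comp and Runx2 were PRCa. Over the 53 genes together, 45 held H3K27me3, 44 Pol2-S5p and 26 Pol2-S7p, and 18 were PRCr and 24 PRCa. Without wide regions 8 of the 45 kept H3K27me3, against 41.8% of the protein-coding genes with the mark. Of all protein-coding genes, 15.8% then held it. The lists were chosen with earlier results of these data known, so their counts are a description.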

How the data were processed

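Per the labels and methods of the study, the authors sequenced single ends of 75 bp. They aligned the reads with Bowtie2 2.3.4.3 to mm10 in which bases that differ between the parental strains were masked. They ran a Bayesian change-point peak finder in its histone mode on every library. The deposited tables gave a score per region, in a unit not given in the sources used here, which was compared only between regions of 1 list. The other deposited value, the width in bp, was a multiple of 200. Control libraries were not used here.

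Gene positions came from GENCODE M21 on GRCm38 (mm10) and are printed counting from 1. Genes were kept on 21 chromosomes, with overlapping genes retained. A mark was counted from 1 bp of overlap with the 2 kb window. The start with the most Pol2-S5p cover, then Pol2-S7p cover, then the longest transcript was used. The read threshold of the study's state scheme needs reads and was not applied. The study also left overlapping genes and genes with nearby starts unclassified, which was not done here. Bodies ran between the first and last annotated base, surroundings were 100 kb on each side, and wide regions were over 10 kb. Sequence came from the reference genome, and RefSeq promoters with over 30 bases in an annotated exon are not printed.

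The members and lists were chosen with earlier results of these data known. Named were all members, all other Sox genes, their nearest protein-coding neighbours, promoters sharing their H3K27me3 region, the closest gene in 9 shares, and up to 6 genes per state of each list. Some genes that this rule gives are not reported here. Noncoding neighbours, a further body region and sequences were chosen after their values were seen. Functions were tested on simulated data. Python 3.11.15, NumPy 2.4.6, SciPy 1.17.1, pysam 0.24.0 and Matplotlib 3.10.9 were used.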

Additional observations from a re-analysis of the deposited data

How the results depend on the processing

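The states of all 10 Sox genes stayed as given with a 4 kb window, with the start of the longest transcript and with any annotated start, and 9 stayed with a 1 kb window, all except Sox4. Asking for 50% cover of the window left 3 genes PRCa (18.6% of all protein-coding genes), and setting aside regions at or below the list's median score also left 3 (8.57%). Leaving out H3K27me3 regions over 10 kb left 3 Sox genes with H3K27me3 (15.8%), 1 PRCr (Sox5; 3.02%) and 2 PRCa (Sox4 and Sox11; 10.4%), 3 of the 10 other Sox genes with H3K27me3 and 8 of the 53 related genes. Leaving out polymerase regions over 10 kb left 6 Sox genes with Pol2-S5p (33%) and 2 PRCa (Sox8 and Sox11; 10.6%), and Sox12 without any mark. With starts of protein-coding transcripts alone, 9 genes stayed the same, all except Sox5. The exclusions for the other Sox and related genes and the restriction to protein-coding transcripts were chosen after seeing the data.

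Median cover depended more on the settings. Without regions over 10 kb, the body medians were 0% for H3K27me3, 1.85% for Pol2-S5p and 0.278% for Pol2-S7p, and those of the surroundings were 1.26%, 2.06% and 0.592%, against 1.3%, 1.99% and 1.4% over all protein-coding genes. With regions at or below the median score set aside, the body median was 0.246% for Pol2-S7p, and those of the surroundings were 5.13% for H3K27me3, 2.31% for Pol2-S5p and 3.06% for Pol2-S7p, against 1.7%, 2% and 1.32%. With 50 kb on each side, the surroundings had 19.3% H3K27me3, 9.37% Pol2-S5p and 5.29% Pol2-S7p, against 7%, 19.2% and 15.2%. With 200 kb they had 9.14%, 20.3% and 13.2%, against 10.5%, 19.6% and 16.2%, so the Sox median passed to the other side of the median of all protein-coding genes for H3K27me3 and Pol2-S5p. The width limit can only lower cover, by its construction, and the share of covered length that it removes was not computed. For the other settings the cause was not tested. With 1 library per mark and no read counts, neither replicate error nor depth could be assessed. No paired analysis was possible because no group had replicates.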

Other observations

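Of 16 lncRNA genes inside or within 5 kb of a Sox gene, 4 were in the state of that Sox gene, the 4 whose start lay within 2 kb of the Sox start, and the 12 with a more distant start were in another state. Gm14662 starts on the opposite strand 0.223 kb from Sox3 and was PRCa, as Sox3 was. 2810468N07Rik starts 0.144 kb from Sox8 on the opposite strand and was PRCa, with 2000 bp of each mark. BC006965 starts 0.248 kb from Sox9 on the opposite strand and was PRCr, with 2000 bp of H3K27me3, 1976 bp of Pol2-S5p and 0 bp of Pol2-S7p. Windows this close share most of their bases with that of the Sox gene. Sox6os, 1.62 kb from the Sox6 start, was PRCr, and Sox1ot, which starts 9.52 kb upstream of Sox1 in the same H3K27me3 region, was PRCr while Sox1 was PRCa. Within Sox5, the lncRNA genes Sox5os4 and Sox5os5 held H3K27me3 only, with 2000 and 35 bp, and Sox5os1, Sox5os2, Sox5os3 and Sox5it had no mark. Gm26735 at Sox4 was Active, AC131323.3 at Sox8 and Gm11681 at Sox9 held H3K27me3 only, Gm10863 at Sox10 was PRCa and Gm45025 at Sox6 was Inactive. These lncRNA genes were chosen after their values were seen.

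Of the other Sox genes, Sox2, a pluripotency factor of ESCs, had 1000 bp of H3K27me3 and 2000 bp of each polymerase form in its window and was PRCa. H3K27me3 covered 48.4% of its body. Sry, on the Y chromosome, had 2000 bp of Pol2-S7p, no Pol2-S5p and no H3K27me3, a state of 0.406% of all protein-coding genes, and Pol2-S7p covered 92% of the 100 kb on each side of it.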
